A study of Mus musculus with 5 samples.

Results

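The subject here is the set of 10 genes whose products fuse and divide mitochondria or process the fusion protein OPA1, namely Mfn1, Mfn2, Opa1, Oma1, Dnm1l, Mff, Fis1, Mief1, Mief2 and Mtfp1. They were chosen by name, and all 10 were found among the 15116 genes of the deposited table. RNA was measured by bulk 3′ tag sequencing in mouse hearts lacking Immt, the gene of Mic60 (mitofilin), on which the MICOS complex at the cristae junctions of mitochondria is built. The knockout group held 2 libraries from Immtfl/fl-Myh6-MCM mice, in which loxP-flanked Immt is cut by a tamoxifen-activated MerCreMer recombinase under the cardiomyocyte promoter of Myh6. The control group held 3 libraries from Immt+/+-Myh6-Cre mice, with both Immt alleles intact and a Cre of the same promoter that is active without tamoxifen. Every one of the 5 samples carries a label of tamoxifen injection. Knockout mice received it at 6 weeks of age, and their labels state that hearts were taken 10 weeks later, whereas for the controls the labels state no interval and the design text calls them age-matched. The form of Cre therefore differs together with the Immt genotype, and the effects of each cannot be told apart. Nothing in the labels says that the samples were separate animals beyond their separate titles, so p-values measure the spread between these libraries.

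Mitochondria in the heart are remodelled by large GTPases. Mitofusins 1 and 2 (Mfn1, Mfn2) join outer membranes and OPA1 joins inner membranes and shapes cristae, and the stress-activated protease OMA1 cuts OPA1 and thereby limits fusion. Division is carried out by DRP1 (Dnm1l), which is recruited to the outer membrane by the adaptors MFF, FIS1, MiD51 (Mief1) and MiD49 (Mief2), while MTFP1 is an inner membrane protein that promotes division. A 3′ tag counts RNA ends, so that splice forms of Opa1 and Dnm1l, the cutting of OPA1 and the movement of DRP1 are not seen in these data.

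The letters upstream of the 2 genes that fell, Mtfp1 and Mfn2, are shown first, because motifs for regulators of mitochondrial genes could be sought there. RefSeq promoter windows (GRCm38.p6, the 250 bases before a start site, 5′ to 3′) were found for all 10 genes, and 4 of them had more than 1 start site. Motifs searched on both strands were AAGGTCA (estrogen-related receptors), CACGTG (the E-box), TGATGNAAN (the ATF4 CARE element), GCGCATGC (NRF1) and CCGGAAGT (ETS factors such as GABP), and no match of one overlapped a match of another. None of these 5 was found in the window of Mtfp1 or in that of any start site of Mfn2, so both windows are in lower case throughout.
Mtfp1 (chr11:4095432-4095681, - strand): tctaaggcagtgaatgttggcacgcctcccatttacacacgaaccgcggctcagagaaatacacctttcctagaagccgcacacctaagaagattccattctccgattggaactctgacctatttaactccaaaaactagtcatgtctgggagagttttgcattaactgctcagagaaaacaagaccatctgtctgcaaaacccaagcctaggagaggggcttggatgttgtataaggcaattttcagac
Mfn2, most upstream start (chr4:147904910-147905159, - strand): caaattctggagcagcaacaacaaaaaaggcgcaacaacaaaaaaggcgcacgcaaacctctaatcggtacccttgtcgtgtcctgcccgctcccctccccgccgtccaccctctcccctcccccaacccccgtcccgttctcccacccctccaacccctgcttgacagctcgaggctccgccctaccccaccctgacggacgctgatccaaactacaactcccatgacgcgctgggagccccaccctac

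Matches were found in 5 of the 10 genes, none of which passed the test described below. The ETS letters stood upstream of Mfn1, Fis1 (at start site 1 but not at start site 2) and Mief1. Of all 32851 RefSeq mouse promoter windows of this length, 2.88% hold them. These shares are of windows and not of genes, and a gene with more than 1 start site has more than 1 window. The NRF1 letters stood upstream of Opa1 (2.26% of all windows hold them), and an E-box stood upstream of Mief2 (6.02%). No window of a member held the receptor letters (4.08% of all) or the CARE letters (3.44% of all). The matches are printed in capitals with their 12 flanking bases on each side, fewer where the start site was nearer.
Mfn1 (chr3:32529426-32529457, + strand): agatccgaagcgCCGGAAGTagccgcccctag
Fis1 (chr5:136953245-136953274, + strand): aggaggcaccacCCGGAAGTtcaggcttcc
Mief1 (chr15:80234003-80234034, + strand): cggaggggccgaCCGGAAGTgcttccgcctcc
Opa1 (chr16:29579263-29579296, + strand): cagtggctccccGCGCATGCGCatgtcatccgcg
Mief2 (chr11:60728362-60728391, + strand): ctccgttttgagCACGTGtgcgcaggagtt
The ETS match ended 37 bases before the start of Mfn1, 11 before start site 1 of Fis1 and 58 before the start of Mief1. The NRF1 letters of Opa1 were found on both strands as 2 overlapping matches, and the E-box of Mief2 lay 19 to 24 bases before its start. A match describes letters and not a bound site.

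Every level below is in normalized CPM, which are read counts scaled by an effective library size and not by the plain total. The deposited table gives the mean and the standard deviation (SD) of each group in this unit. Values of single libraries were worked back from these for all members except in the control libraries for Mfn2, where more than 1 solution could arise. Libraries are named a, b and c in falling order of size, which is not the replicate number of the labels. Their effective sizes were 15.2 and 14.1 M reads in the knockout, against 13.6, 13.6 and 12.1 M reads in the control. Between 73.5 (Mief1) and 2894.5 (Mfn2) reads stood behind a member's value in 1 library. Immt, the targeted gene, was at 15.98 and 19.83 CPM in the knockout libraries, against a control mean of 254 ± 7.76 CPM (SD, n = 3), or 7.04% of the control level. Its 3′ tag lies outside the deleted part, so this level is no direct check of the deletion. Genes of the mitochondrial genome took 32.2% of the knockout CPM and 36.7% of the control CPM.

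Mtfp1 and Mfn2 were lower in the knockout hearts and were the only members to pass the test. The test was limma's moderated test on log2(CPM + 0.5) with Benjamini-Hochberg adjustment over all 15116 genes, and calls were made below an adjusted p of 0.05. Of the 10 members 2 were lower, 0 were higher and 8 did not pass, while 12.9% of all genes were lower and 13.3% were higher. At an unadjusted p under 0.05 there were 3 of the 10 members, against 5733 of all 15116 genes. The 3 members were all lower in the knockout (Mtfp1, Mfn2 and Mief2). The median log2 fold change was -0.09 over the members and -0.02 over all genes. A count of 2 in 10 is near the background of all genes, and the members as a set are not read as different from it. With scaling to library totals, every gene moved up by about 0.13 on the log2 scale, which gave 3067 higher and 1419 lower genes, against 2014 higher and 1944 lower with the deposited scaling. Mfn1, Opa1 and Mff, none of which passed, then changed sign.

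Mtfp1, the inner membrane division factor, had the largest difference of the 10. It was at 55.8 and 54.1 CPM in the knockout libraries, against 83.1, 90.5 and 80.2 CPM in the control libraries. The groups did not overlap, and the gap between them was wider than the spread inside either. Mtfp1 was at 64.9% of the control level, a log2 fold change of -0.62 (SE 0.08, 95% interval -0.80 to -0.44, adjusted p = 0.00066). The same call was made under each of the 16 alternative settings, with log2 fold changes between -0.65 and -0.49.

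Mfn2, the outer membrane fusion GTPase that also tethers mitochondria to the sarcoplasmic reticulum, was the most abundant member by tags. It was at 190.4 and 181.0 CPM in the knockout libraries, against a control mean of 227 ± 5.81 CPM (SD, n = 3). The control SD confines its 3 values to between 220.3 and 233.8 CPM, so the groups did not overlap. Mfn2 was at 81.8% of the control level, a log2 fold change of -0.29 (SE 0.06, 95% interval -0.43 to -0.15, adjusted p = 0.0088). The call was lost without knockout library b (-0.25, adjusted p = 0.051), with scaling to library totals (-0.16, adjusted p = 0.083) and without a variance trend (adjusted p = 0.084).

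Mfn1 was nearer to its control level than its paralog was. It was at 101.7 and 109.3 CPM in the knockout libraries, against 109.0, 111.6 and 114.2 CPM in the control libraries. Knockout library b lay inside the control range and library a below it. The log2 fold change of Mfn1 was -0.08 (95% interval -0.24 to 0.07, adjusted p = 0.43). Whether Mfn1 and Mfn2 differed from each other in their change was not tested.

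Opa1, the inner membrane fusion GTPase, was at 45.0 and 42.4 CPM in the knockout libraries, against 42.9, 45.6 and 52.2 CPM in the control libraries. These ranges overlapped, with control library c standing above the other libraries. Its log2 fold change was -0.10 (95% interval -0.33 to 0.12, adjusted p = 0.50). Oma1, the protease that cuts OPA1, was at 21.4 and 21.8 CPM in the knockout libraries, against 23.1, 21.8 and 19.7 CPM in the control libraries. Both knockout values lay within the control range, and the log2 fold change was 0.01 (95% interval -0.22 to 0.23, adjusted p = 0.98). The interval of Opa1 includes a fall as large as that measured in Mfn2.

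Dnm1l, the division GTPase itself, was at 37.0 and 36.1 CPM in the knockout libraries, against 35.7, 38.7 and 34.4 CPM in the control libraries. Both knockout values lay within the control range, and the log2 fold change was 0.01 (95% interval -0.19 to 0.21, adjusted p = 0.95). Among its adaptors, Mff was at 83.1 and 80.3 CPM in the knockout libraries, against 83.4, 88.3 and 94.3 CPM in the control libraries. The groups of Mff were separated by less than the spread inside the control, and its log2 fold change was -0.12 (95% interval -0.29 to 0.06, adjusted p = 0.30). Fis1, an outer membrane adaptor, was at 69.8 and 66.2 CPM in the knockout libraries, against 61.0, 59.5 and 64.6 CPM in the control libraries. All knockout values of Fis1 were above all control values, with a log2 fold change of 0.14 (95% interval -0.03 to 0.31, adjusted p = 0.21). Fis1 passed the test with scaling to library totals (0.27, adjusted p = 0.027).

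The paralogous adaptors Mief1 and Mief2 lay on opposite sides of their control levels. Mief2 was at 10.4 and 9.95 CPM in the knockout libraries, against 12.9, 13.1 and 12.6 CPM in the control libraries. The groups did not overlap, yet the log2 fold change of -0.32 (95% interval -0.56 to -0.09) missed the threshold, with an adjusted p of 0.052. Its SD of 0.313 CPM in the knockout and 0.299 CPM in the control was smaller than the SD that counting alone gives, 0.834 and 0.992 CPM. Mief2 passed in 4 of 16 settings, with adjusted p between 0.035 and 0.049. These were a minimum mean of 1 or 5 CPM, the spread of each gene alone and leaving out control library c. It did not pass in the other 12, among them scaling to library totals (log2 fold change -0.20, adjusted p = 0.19). Without control library a or b it did not pass either (adjusted p = 0.14 and 0.16).

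Mief1 was at 6.84 and 8.35 CPM in the knockout libraries, against 5.39, 6.83 and 6.60 CPM in the control libraries. The lower knockout value of Mief1 was only just above the highest control value, and the log2 fold change was 0.26 (95% interval -0.09 to 0.61, adjusted p = 0.26). The ratio of Mief1 to Mief2, examined after the values of both had been seen, was 0.658 and 0.839 in the knockout libraries, against 0.418, 0.520 and 0.526 in the control libraries. Both knockout ratios were higher than all control ratios, a difference of 0.62 on the log2 scale. An exact two-sided permutation test over the 5 libraries gave p = 0.1, the smallest that 10 arrangements allow, so this design could not reach the threshold. Separation of the ratio followed from that of both genes in opposite directions, so the test adds nothing to their values.

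**Figure D1:**
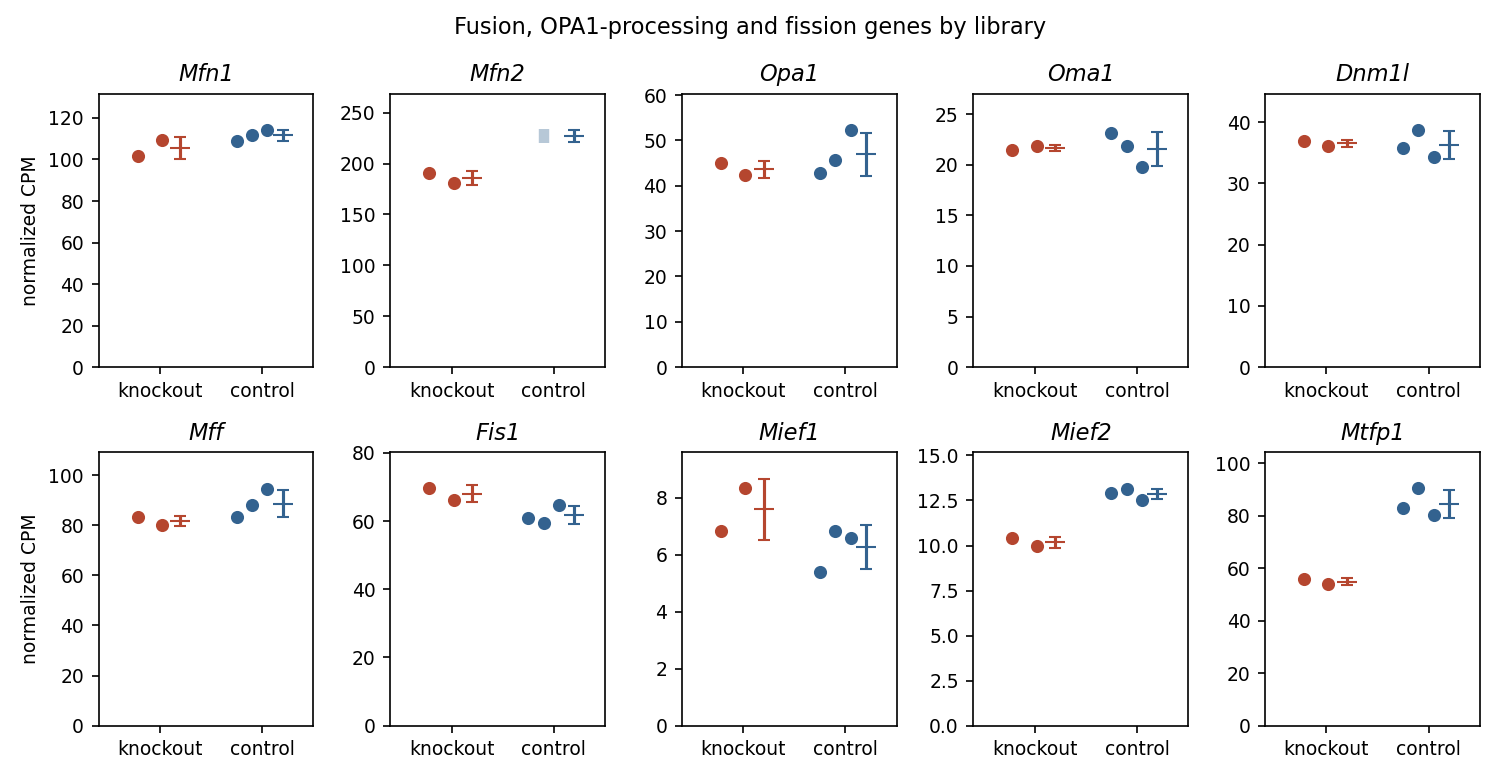
Normalized CPM of the 10 genes in each library, knockout at left and control at right in each panel, with the group mean and SD beside the points. Each axis starts at 0, and for Mfn2 the pale bar marks the range that the control SD allows, 220.3 to 233.8 CPM, above both knockout points.

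Across the 10 members, all knockout libraries were below all control libraries in 4 (Mtfp1, Mfn2, Mief2 and Mff) and above them in 2 (Fis1 and Mief1), and 4 overlapped. Over the 12075 genes where this could be read, 28.2% were below and 22.6% were above. Those genes are under 150 CPM in the control and so exclude Mfn2, without which 3 of the other 9 members were below. The spread between libraries was small in both groups. The coefficient of variation of the members had a median of 3.32% in the knockout and 6.16% in the control, against 5.25% and 8.24% over the 9067 genes of at least 5 CPM. An SD of 2 libraries tends to be lower than one of 3.

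**Figure D2:**
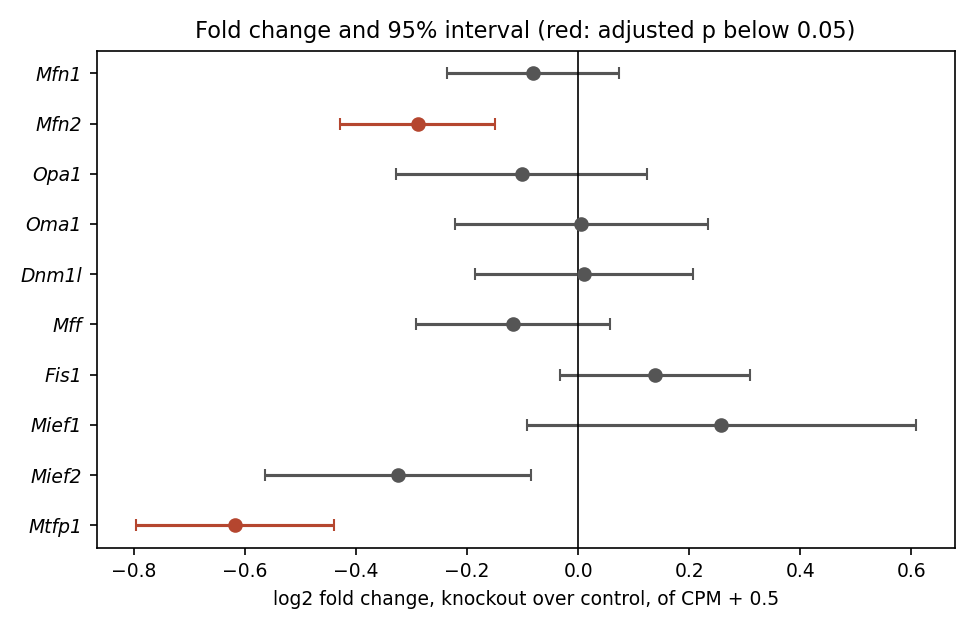
Log2 fold change of the 10 genes, knockout over control, of CPM + 0.5, with bars for the 95% interval of limma's test. Mtfp1 at -0.62 and Mfn2 at -0.29 are in red, and the interval of each gene other than these and Mief2 includes 0.

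Beside these 10, 55 partners with known roles around fusion and division were listed by function, and 52 of them were in the table. Of the 52, 8 were higher, 3 were lower and 41 did not pass, with a median log2 fold change of -0.01. The shares over all genes were 13.3% higher and 12.9% lower. The count of higher partners is near its share, while the count of lower partners, 3 of 52, is under its share. Neither difference was tested. With scaling to library totals, 14 partners were called, 13 higher and 1 lower, with a median of 0.12. Under that scaling 3067 of all 15116 genes were higher and 1419 were lower, with a median of 0.09. Each group of partners below is small, and its count stands against these same 13.3% and 12.9% and is read as no more than a count. Scaffolds and proteases of the inner membrane were 3 higher of 9 (13.3% of all genes), the other 6 not passing. Phb2, a prohibitin subunit that holds OPA1-processing proteases in place, was at 157.4 and 159.8 CPM in the knockout libraries, against 109.9, 108.0 and 114.5 CPM in the control libraries (log2 fold change 0.52, adjusted p = 0.00059). Stoml2, which binds prohibitins and cardiolipin, was at 100.2 and 97.5 CPM in the knockout libraries, against 77.6, 73.8 and 75.6 CPM in the control libraries (log2 fold change 0.38, adjusted p = 0.0035). For both genes the 2 groups stood well apart. Afg3l2, a subunit of the m-AAA protease, averaged 73.1 ± 6.92 CPM in the knockout and 57.4 ± 2.01 CPM in the control (SD, n = 2 and 3), with a log2 fold change of 0.34 (adjusted p = 0.016). The call of Afg3l2 was lost in 5 of 16 settings, including without knockout library a and without control library a or b.

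Regulators that act on fission and fusion proteins through ubiquitin, SUMO or phosphate were 3 higher of 9 (13.3% of all genes). Pgam5, a mitochondrial phosphatase that acts on DRP1, averaged 29.9 ± 3.54 CPM in the knockout and 20.7 ± 0.638 CPM in the control (log2 fold change 0.52, adjusted p = 0.0060). Marchf5, an outer membrane ubiquitin ligase with targets among the division adaptors, averaged 78.3 ± 2.57 CPM in the knockout and 57.7 ± 5.59 CPM in the control (log2 fold change 0.44, adjusted p = 0.0088). Pgam5 lost its call without knockout library a, and both genes lost it with the spread of each gene alone.

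Trafficking genes were 2 lower of 4 (12.9% of all genes). Rhot2, the outer membrane GTPase Miro2 that couples mitochondria to motors, was at 47.1 and 47.5 CPM in the knockout libraries, against 82.2, 77.2 and 73.6 CPM in the control libraries. The knockout values were close together and far below every control value, with a log2 fold change of -0.71 (95% interval -0.88 to -0.53, adjusted p = 0.00029). Rhot2 was called under all 16 alternative settings. Trak2, a motor adaptor that binds Miro proteins, averaged 53.7 ± 1.66 CPM in the knockout and 72.3 ± 10.4 CPM in the control (log2 fold change -0.43, adjusted p = 0.025), and lost its call with library totals, without a variance trend and with the spread of each gene alone.

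Partners of Mic60 itself in MICOS and the SAM50 complex were 2 higher and 1 lower of 7 (13.3% and 12.9% of all genes). Chchd6 (Mic25) averaged 14.2 ± 0.526 CPM in the knockout and 7.60 ± 0.846 CPM in the control (log2 fold change 0.86, adjusted p = 0.0016). Chchd3 (Mic19) averaged 267 ± 2.16 CPM in the knockout and 216 ± 12.6 CPM in the control (log2 fold change 0.31, adjusted p = 0.010), a call lost without knockout library b, without a variance trend and with the spread of each gene alone. Micos10 (Mic10) averaged 360.2 ± 12.9 CPM in the knockout and 423 ± 29.2 CPM in the control (log2 fold change -0.23, adjusted p = 0.043), and lost its call in 6 of 10 settings, scaling among them.

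No call was made by limma in the remaining groups. Their counts at an unadjusted p under 0.05 stand against 5733 of all 15116 genes and are read as no more than counts. Among 13 other fusion and fission factors, 2 had an unadjusted p under 0.05, and the largest differences were 0.49 in Spire1 (adjusted p = 0.12), which nucleates actin at division sites, and -0.25 in Opa3 (adjusted p = 0.077). In the relay that carries the OMA1 stress signal to the cytosol, Dele1 had a log2 fold change of -0.14 (adjusted p = 0.39) and the kinase gene Eif2ak1 one of 0.02 (adjusted p = 0.94), and 0 of 2 had an unadjusted p under 0.05. Of 8 regulators of the PGC1, ERR and NRF families 2 had an unadjusted p under 0.05, with differences of 0.35 in Gabpa (adjusted p = 0.084), the DNA-binding subunit of an ETS factor, and -0.33 in Perm1 (adjusted p = 0.11).

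**Figure D3:**
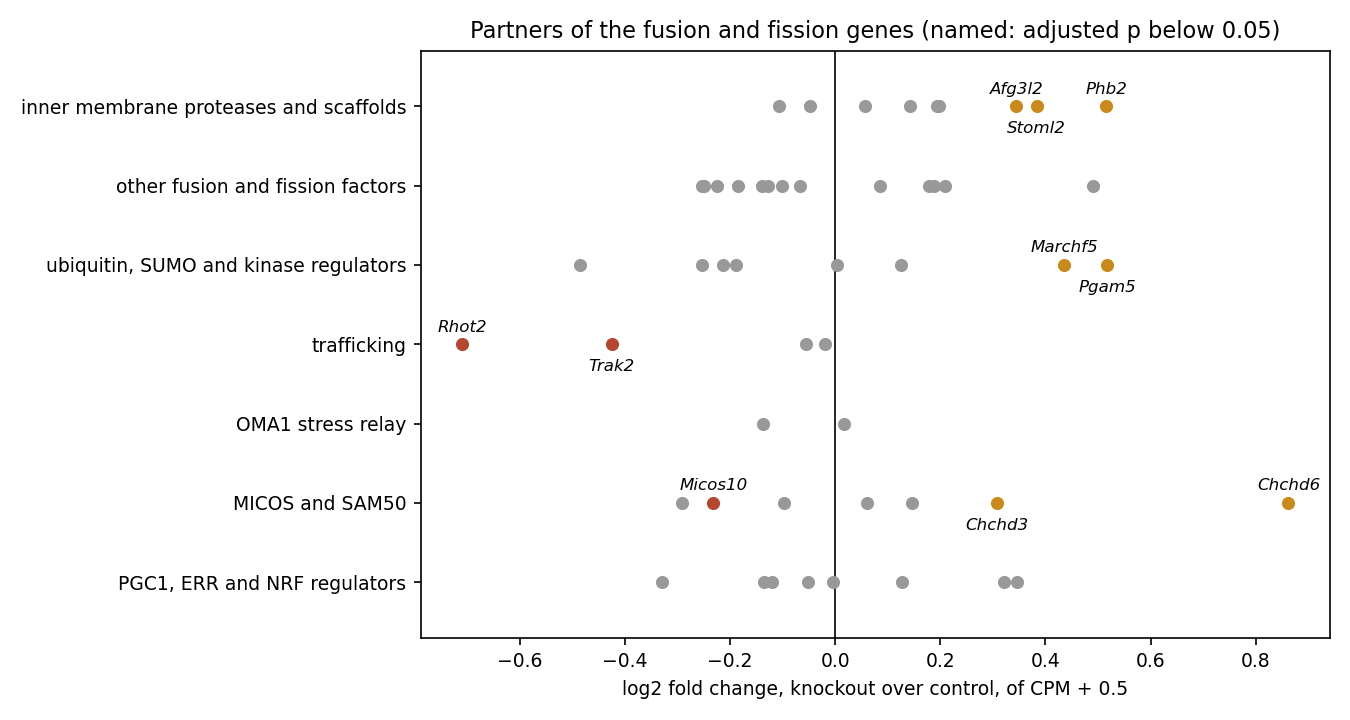
Log2 fold change, knockout over control, of CPM + 0.5 for the partners reported here, 1 point a gene, in rows by function. Genes called higher are in ochre and those called lower in red, with Rhot2 at -0.71 and Chchd6 at 0.86 at the ends.

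Cardiomyocyte markers were mostly called lower in the knockout, and their part in the results was not tested. Of 6 cardiomyocyte markers 5 were called lower, against 12.9% of all genes. The other, Myh6, was at 86.2% of control (log2 fold change -0.21, adjusted p = 0.12). The summed mean of the 6 was 18068 CPM in the knockout and 24021 CPM in the control, a ratio of 0.752. Fewer cells of a type and less RNA per cell cannot be told apart in whole-heart RNA. Single cardiomyocyte markers ran between 40.8% of control (Ryr2) and 87.9% (Tnni3), and the next lowest after Ryr2 was Actc1 at 69.8%. Mief2 (79.1%, not called) and Mfn2 (81.8%) lay between Actc1 and Tnni3, while Mtfp1 (64.9%) lay below every marker but Ryr2. All other members lay above every cardiomyocyte marker, from 92.2% (Mff) to 121% (Mief1). Of the other markers, 1 of 4 fibroblast genes and 1 of 5 leukocyte genes were called lower (12.9% of all genes). Their summed ratios were 0.852 and 0.718. Most of each control sum came from the called gene, Dcn (309 of 402 CPM) and Lyz2 (124 of 154 CPM). None of 4 mural cell genes (summed ratio 0.796) or 4 endothelial genes (1.06) was called. No marker was listed at 0. Genes of the Y chromosome were present in both groups at a summed ratio of 0.982. All these summed ratios use the deposited scaling, and scaling to library totals would raise each by about 0.13 on the log2 scale.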

How the data were processed

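RNA from 2 knockout and 3 control mouse hearts was sequenced by the authors as oligo-dT 3′ tag libraries with unique molecular identifiers. The submitters' processing notes name GRCm39, STAR 2.7.11, SAMtools 1.22.1, Subread 2.1.1, featureCounts and edgeR 4.0.16, without saying which did what. The deposited signal is 1 mean and 1 SD per group in normalized CPM, made by the authors for 15116 genes. The column sums were 947955 CPM in the knockout and 1036321 CPM in the control. The deposited table also holds the authors' own comparison (fold change, F, p-value and adjusted p), which was not used. The filter on low genes that made the table is not given in the sources used here.

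The 10 members and all lists were chosen with earlier results of these data known. Named genes were Immt, all members and, in each list of partners, up to 4 called genes with the smallest p or, with none called, the 2 largest differences; 1 gene that this rule picks is counted in its list but not reported here. The log2(CPM + 0.5) mean and variance of each group were derived from the deposited mean and SD by the delta method, and tested two-sided with limma 3.58.1 in R 4.3.3, with a variance trend (prior degrees of freedom 5.57), Benjamini-Hochberg adjustment over all genes and a threshold of 0.05. Count models were not run because the table holds no value of a single library.

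Values of libraries were worked back as the sets of reads, in steps of 0.5 read, that give the deposited mean and SD within 6 significant digits, with the CPM of 1 read fitted per library in Python 3.11.15. All 5 libraries were solved in 12167 genes (80.5%), of which 27.3% held reads in steps of 0.5. Solutions that arise by accident averaged at most 0.05 per draw in the members, over 200 draws of perturbed values, other than Mfn2 (0.415 in the control), so no control value of Mfn2 or of Immt (0.55) is printed. Overlap between groups was counted in genes under 150 CPM in the control. Both steps were tested on simulated data. Alternatives covered pseudocounts, minimum means, scaling, variance models, the linear scale, worked-back values and leaving out each library, and their effect is given at the end. Fits on worked-back values were added after the data were seen.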

Additional observations from a re-analysis of the deposited data

How the results depend on the processing

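No paired analysis was possible because the table carries no replicate numbers. Over 16 alternative settings no member that was called reversed. The 2 members called became 1 without a variance trend, and between 1 and 3 when 1 library was left out, the lowest without knockout library b. The 11 partners called became 7 without a variance trend, 4 with the spread of each gene alone, and between 5 and 14 of the 43 that could be worked back when 1 library was left out. The 3958 genes called in all became 1503 with the spread of each gene alone and between 1198 and 3780 of 12167 when 1 library was left out. The like baseline is the fit on worked-back values of all 5 libraries, which called 2786 of 12167 genes and 8 of the 43 partners. Leaving out control library a gave 1958 genes, control library b 2084 and control library c 3780. The leave-one-out fits tested fewer genes and fewer libraries, and with 1 knockout library left, that library is assumed to vary like the others. For Mfn2 and Immt the leave-one-out fits use 1 candidate set of control values. Phb2, Stoml2, Rhot2 and Mtfp1 were called in all 16 settings, while Chchd6, Pgam5 and Marchf5 lost their calls with the spread of each gene alone. Depth was lowest for Spire1 and Mief1 among the genes described.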
